A study of Mus musculus with 71 samples.

Results

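The SoxB genes Sox1, Sox2, Sox14 and Sox21, with the noncoding transcripts Sox1ot and Sox2ot that overlap the first pair, were examined in a map of H3K27ac-marked chromatin loops from mouse synovial sarcomas. A loop was assigned to a member gene when one of its anchors lay within 2 kb of a transcription start site (TSS) of that gene in the GENCODE annotation. The members are 6 named genes of 55450 annotated, the rule uses no tag count, and 64 of the 24244 loops in the map were theirs. The tumors expressed the human SS18::SSX2 fusion from the Rosa26 locus (the hSS2 allele) once Cre had removed a stop cassette, and were started by injection of TATCre protein into the hindlimb at day 8 of life. Both HiChIP samples carried this one genotype, no untreated tissue was profiled by HiChIP and the tumors were dissociated whole, without a sort of tumor cells. The list holds no expression values, so the labelled tumor type could not be checked against markers.

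HiChIP joins DNA ends that lie close together in the nucleus and then captures them with an antibody, here against acetylated lysine 27 of histone H3, a mark of active promoters and enhancers. Each loop is therefore a pair of genomic segments (anchors) with a count of paired-end tags that connect them. SoxB proteins are HMG-box transcription factors of early neural development. SOX1, SOX2 and SOX3 (group B1) mainly activate transcription and keep progenitors undifferentiated, whereas SOX14 and SOX21 (group B2) mainly repress it. SOX2 is also a pluripotency factor and acts together with POU-domain partners at composite DNA sites. Sox2 lies within an intron of Sox2ot, and Sox1 within Sox1ot, both transcribed in the same direction as their coding gene.

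The promoters through which the strongest members were looped are shown first, since they carry the anchors described below. Each run is 300 bases from 250 before the start site, 5′ to 3′ on the plus strand of GRCm38.p6, from the RefSeq promoter set for Sox1 (chr8:12395269-12395568), Sox1ot (chr8:12385521-12385820) and Sox2 (chr3:34649745-34650044), and from the RefSeq genome for the GENCODE start of Sox2ot that had loops (chr3:34664993-34665292). Capitals mark the SOX core ACAAAG or ACAAT, the octamer ATGCAAAT of POU factors and the MboI site GATC, on either strand.
Sox1: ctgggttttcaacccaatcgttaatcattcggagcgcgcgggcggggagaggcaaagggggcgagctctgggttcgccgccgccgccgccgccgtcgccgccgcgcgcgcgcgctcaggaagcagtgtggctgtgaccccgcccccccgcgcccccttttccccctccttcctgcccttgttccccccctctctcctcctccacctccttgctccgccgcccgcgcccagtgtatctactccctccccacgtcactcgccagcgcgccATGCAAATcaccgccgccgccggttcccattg
Sox1ot: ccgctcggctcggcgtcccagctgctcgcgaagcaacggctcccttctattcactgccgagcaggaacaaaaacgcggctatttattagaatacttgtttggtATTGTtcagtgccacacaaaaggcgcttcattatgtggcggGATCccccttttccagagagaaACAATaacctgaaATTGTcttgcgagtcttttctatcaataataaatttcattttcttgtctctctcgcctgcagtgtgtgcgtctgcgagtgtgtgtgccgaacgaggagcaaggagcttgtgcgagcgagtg
Sox2: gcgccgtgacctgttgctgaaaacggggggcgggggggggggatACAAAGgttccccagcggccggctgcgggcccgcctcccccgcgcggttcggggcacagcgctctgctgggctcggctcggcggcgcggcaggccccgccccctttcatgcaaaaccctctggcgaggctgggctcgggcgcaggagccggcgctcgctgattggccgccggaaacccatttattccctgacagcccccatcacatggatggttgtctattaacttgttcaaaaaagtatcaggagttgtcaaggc
Sox2ot: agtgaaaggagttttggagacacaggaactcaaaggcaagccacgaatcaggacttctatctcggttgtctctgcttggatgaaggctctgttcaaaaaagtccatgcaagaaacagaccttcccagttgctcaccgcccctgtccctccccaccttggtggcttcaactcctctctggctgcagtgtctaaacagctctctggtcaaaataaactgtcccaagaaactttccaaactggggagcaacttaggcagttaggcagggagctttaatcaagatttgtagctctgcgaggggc
The Sox2 promoter held 1 SOX core, ACAAAG at bases 45 to 50 of the window, and the Sox1ot promoter held 3, whereas the Sox1 and Sox2ot windows held none. At least 1 such core was present in 42.9% of 32851 RefSeq promoters of the same length and at least 3 in 3.95%. The Sox1 window held the octamer, 18 bases after the RefSeq start site, which 1.74% of all promoters held. The RefSeq starts of Sox1 (position 12395519) and Sox2 (34649995) differ from the GENCODE starts used for loops (12395295 and 34650405). GC content was 70.7% for Sox1 and 66.3% for Sox2, against 49.7% for both Sox1ot and the Sox2ot start and a median of 52.7% over all promoters. The Sox2ot window contained 4 CpG dinucleotides, compared with 37 in Sox1, 27 in Sox2 and 20 in Sox1ot. These matches are letters in a window and no binding was measured at them here.

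The list held 41574 tags in all, and 78.0% of its loops rested on a single tag. Both tumors were merged into 1 list, so no spread between replicates can be given and no comparison below carries a test. The list is ordered by position and starts over at chromosome 1 once, which divides it into a first part of 28657 tags and a second part of 12917. The labels do not say that each part is a tumor, and the parts were therefore not used as replicates. They served to ask whether a contact was listed once or more than once, and to describe how scores divided. Loops of similar span were also taken from the same part. Intervals are 95% intervals for counting error alone, and PCR copies without molecular identifiers are not independent molecules.

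All 6 members had at least 1 loop, beside 23.9% of all annotated genes. The members were chosen with earlier results of these data known, and the remaining group B gene, Sox3, is not among them and had no loop. Counts of looped members therefore do not show that SoxB genes were looped more often than others. The 4 coding members can be set beside 45.8% of protein-coding genes with a loop. Loops in both parts were listed for 4 members, namely Sox1, Sox1ot, Sox2 and Sox2ot, beside 12.2% of all genes. Of 21951 protein-coding genes, 5335 had loops in both parts, as did Sox1 and Sox2 but not Sox14 or Sox21. The members fell into a strongly looped set and a weakly looped pair. The loop score, the sum of tags over all loops of a gene, was 53 for Sox1 (interval 39.7 to 69.3), 50 for Sox1ot (37.1 to 65.9), 39 for Sox2 (27.7 to 53.3) and 29 for Sox2ot (19.4 to 41.6). It was 3 for Sox21 (0.619 to 8.77) and 1 for Sox14 (0.0253 to 5.57). Neighbours in this order had overlapping intervals except Sox2ot and Sox21. Sox2 was above Sox1 when only loops with an FDR under 0.001 were kept (24 against 10 tags), and by 1 tag with an FDR under 0.01 (24 against 23) or with at least 4 tags per loop (28 against 27). The median score was 4 over 10050 looped protein-coding genes, among which Sox1 ranked 179, Sox2 361, Sox21 5428 and Sox14 7994. Scores of a gene and its overlapping transcript are not independent, because 1 loop was shared by Sox1 and Sox1ot and 2 by Sox2 and Sox2ot.

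**Figure D1:**
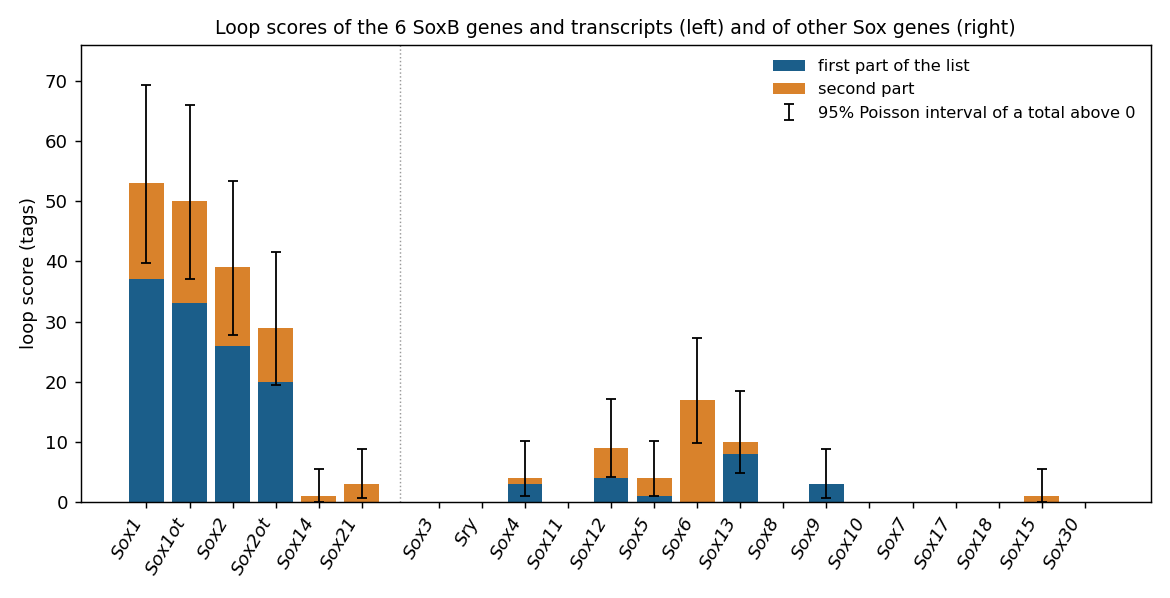
Loop score in tags (vertical axis) of the 6 SoxB members and of 16 other Sox genes, stacked by part of the list, with 95% Poisson intervals of the totals. Sox1, Sox1ot, Sox2 and Sox2ot reached 29 to 53 tags with both parts contributing, and the next Sox gene, Sox6, reached 17.

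Anchors differed in width, and the promoter anchors of the members covered 3.94 kb for Sox1, 4.08 kb for Sox1ot, 4.75 kb for Sox2, 5.93 kb for Sox2ot, 5.84 kb for Sox21 and 6.69 kb for Sox14. Per kb of anchor, the scores were 13.4 tags for Sox1, 12.2 for Sox1ot, 8.21 for Sox2, 4.89 for Sox2ot, 0.513 for Sox21 and 0.15 for Sox14. The order of the first 4 was thus the same per kb as in total, and Sox14 and Sox21 remained lowest although their anchors were wide.

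Relative to depth, the total scores of the strongly looped members were nearly the same in both parts. Similar totals do not mean that the same contacts recurred. The Sox1 loops of 11, 9 and 7 tags were in the first part, and no second-part Sox1 loop reached those segments. Sox1 took 37 tags in the first part and 16 in the second, or 12.9 and 12.4 per 10000 tags. Sox1ot took 33 and 17 tags, or 11.5 and 13.2 per 10000. Sox2 took 26 and 13 tags, or 9.07 and 10.1 per 10000. Sox2ot took 20 and 9 tags, or 6.98 and 6.97 per 10000. The first part supplied 69.8% of Sox1 tags (exact binomial interval 55.7 to 81.7%) and 66.7% of Sox2 tags (49.8 to 80.9%), and it held 68.9% of all tags in the list. By contrast, every tag of Sox14 and Sox21 came from the second, shallower part.

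Sox1 (ENSMUSG00000096014.1, chr8:12395295-12400126, plus strand, 1 annotated TSS) had 21 loops, which ranked 133 by number among 10050 looped protein-coding genes. Its loops lay mostly on one side, with 16 of 21 reaching upstream. The strongest contact was with the Sox1ot start, 11 tags in the first part at a span of 11.04 kb. The next were with chr8:12328346-12332813, 65.9 kb upstream and free of any TSS, with 9 tags, and with chr8:12478201-12480457, 82.8 kb downstream, with 7 tags. First-part loops of similar span (within 20%) had median counts of 13, 8 and 8 tags respectively. Farther out, 3 tags each joined Sox1 to chr8:12000163-12002702, 395 kb away, and chr8:12126331-12129223, 268.8 kb away. At the first of these distances the median was 1 tag and 9.06% of 2362 loops held as many. At the second the median was 2 tags and 34.8% of 880 loops held as many. In the second part 4 loops of Sox1 held 2 tags, at 166 to 303 kb, a count that 7.77 to 11.9% of loops of similar span reached.

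Sox1ot (ENSMUSG00000047935.17, chr8:12385771-12436768, plus strand), the transcript that spans Sox1, had 21 loops of its own through an anchor at its single start site, of which only the 11-tag loop to Sox1 was shared. Its other strong contact was the same upstream segment near chr8:12328346-12332813, with 10 tags in the first part and 4 in the second. First-part loops of similar span had a median of 9 tags and second-part loops of 4. Among starts of other coding genes, its strongest contact was with A230072I06Rik and Gm29175, by 2 tags in the second part at 107.6 kb. Single tags linked Sox1ot to the start of Cdc16, which encodes a subunit of the anaphase-promoting complex, to Upf3a, a factor of nonsense-mediated mRNA decay, and to Atp11a, a phospholipid flippase. Further single tags reached Ing1 and the shared starts of Col4a1 and Col4a2, of Cul4a and Pcid2, and of Dcun1d2 and Tmco3. The Sox1 to Sox1ot loop itself was not listed in the second part.

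**Figure D2:**
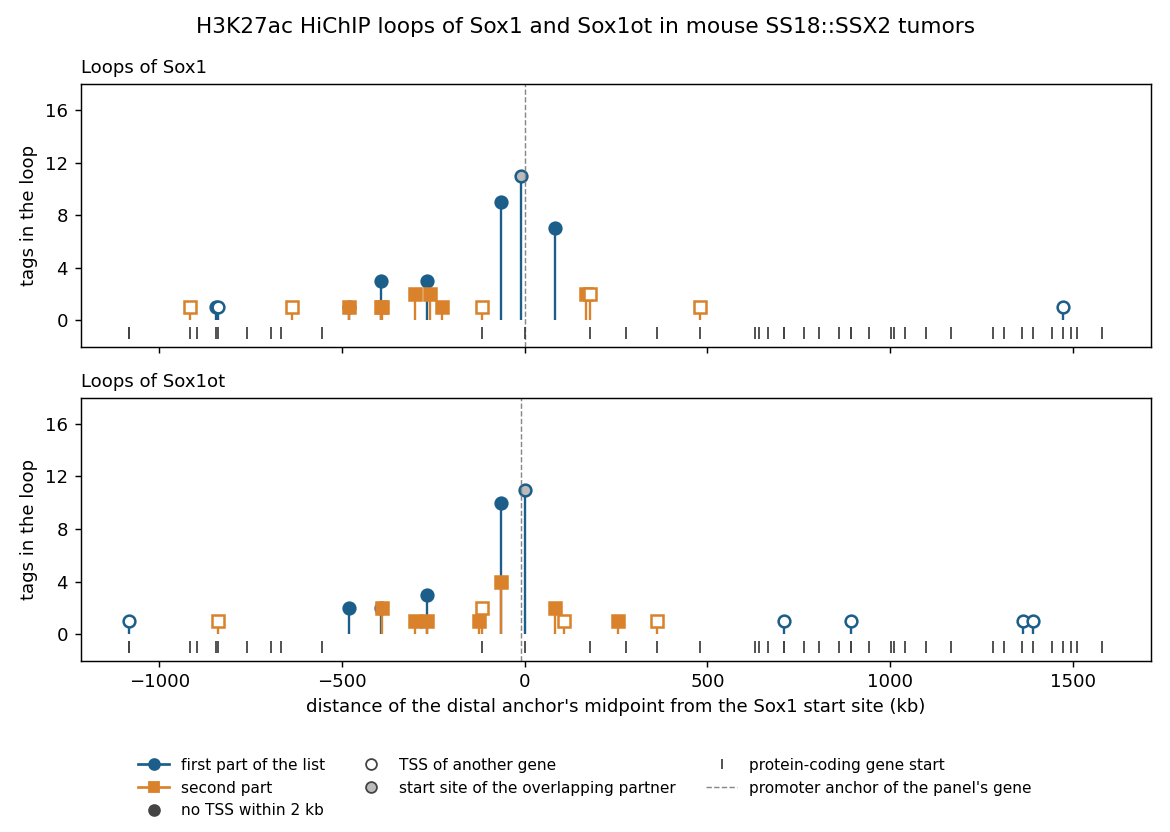
Tags per loop (vertical axis) against distance of the distal anchor from the Sox1 start site in kb, for Sox1 (top) and Sox1ot (bottom). Colours give the part of the list, fill gives whether the distal anchor had no TSS, a TSS of another gene or the start site of the overlapping partner, and ticks are starts of protein-coding genes. Most filled symbols, the contacts free of a TSS, stood within 500 kb upstream, a stretch with 1 coding gene start.

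Merging overlapping distal anchors of Sox1 and Sox1ot, and leaving out their own start sites, gave 27 contacted segments with 81 tags. Of these, 12 had no TSS within 2 kb and they took 62 tags, or 76.5%. Both genes reached 9 of the 27 segments, of which 7 were free of a TSS. Loops from both parts of the list reached 6 segments, of which 5 were free of a TSS, and these 6 held 51 of the 81 tags. The segment at chr8:12328346-12332813 led with 23 tags, 9 to Sox1 and 14 to Sox1ot. It was followed by chr8:12476868-12480457 with 9 tags, chr8:12125339-12132208 with 7, chr8:12000163-12002702 with 6 and chr8:11912498-11915148 with 4. All 5 were intergenic in GENCODE, at least 49.5 kb from the nearest protein-coding start. The remaining one was the promoter of Ing1, a chromatin reader of methylated H3K4, with 2 tags.

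These intergenic segments were not contacted by Sox1 and Sox1ot alone. Of all tags at chr8:12328346-12332813, 46.9% went to the pair, and 10 further loops with 26 tags went elsewhere, among other places to the starts of Ing1 and Atp11a. The pair took 9 of 12 tags at chr8:12476868-12480457 but 24.1 to 28.6% at the 3 segments farther upstream. Flanking coding genes were less looped: A230072I06Rik, the nearest on the upstream side, had a score of 8, and Spaca7, a sperm acrosome gene on the other side, had 7.

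Contacts of Sox1 with promoters of other coding genes were numerous and weak. They numbered 8 among its 20 distal anchors, and none exceeded 2 tags. Sox1 was linked by 2 tags to Spaca7 and the overlapping D630011A20Rik at 176 kb, and by single tags to Ing1, to Cars2 (mitochondrial cysteinyl-tRNA synthetase), to Rab20 (a small GTPase), to Arhgef7, to Mcf2l, to A230072I06Rik and to Champ1, a zinc-finger protein of chromosome alignment. The last lay 1473 kb away, with 25 coding genes between.

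Sox2 (ENSMUSG00000074637.7, chr3:34650405-34652461, plus strand, 1 annotated TSS) had 13 loops, all through the anchor chr3:34647797-34652545, which was listed with the same edges in both parts. More than any other contact, the anchor joined the 3′ part of Sox2ot, where the last annotated Sox2ot start lies together with Gm42693, an unclassified transcript. This contact held 16 tags in the first part at 12.8 kb and 6 tags in the second. Loops of similar span had medians of 12 and 4 tags, and in the first part 21.7% of them held as many.

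Its other strong contact was far downstream. Sox2 met chr3:35470203-35478651, a TSS-free segment at a span of 824 kb, with 6 tags in the first part (interval 2.2 to 13.1; FDR 9.7e-14), and the smaller segment chr3:35470203-35474485 with 1 tag in the second. Of 2686 first-part loops of similar span, 0.298% held 6 tags or more, and their median was 1 tag. The comparison matched span but not width, and this distal anchor was 8.45 kb wide, against a median of 2.22 kb over TSS-free anchors. An effect of width was not tested. A neighbouring segment, chr3:35480288-35482908, had 2 tags with Sox2 in the second part, a count that 2.56% of loops of similar span held. Sox2ot was also joined to chr3:35470203-35478651, by 2 tags in the first part. The segment was intergenic, with no coding start between it and Sox2, and the nearest coding gene, Atp11b (a phospholipid flippase), began 275 kb beyond. Of all 12 tags listed at this segment, 9 went to Sox2 and Sox2ot, and the 3 remaining loops held 3 tags and included a contact with Fxr1, a cytoplasmic RNA-binding protein. Atp11b itself had no loop in the list.

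**Figure D3:**
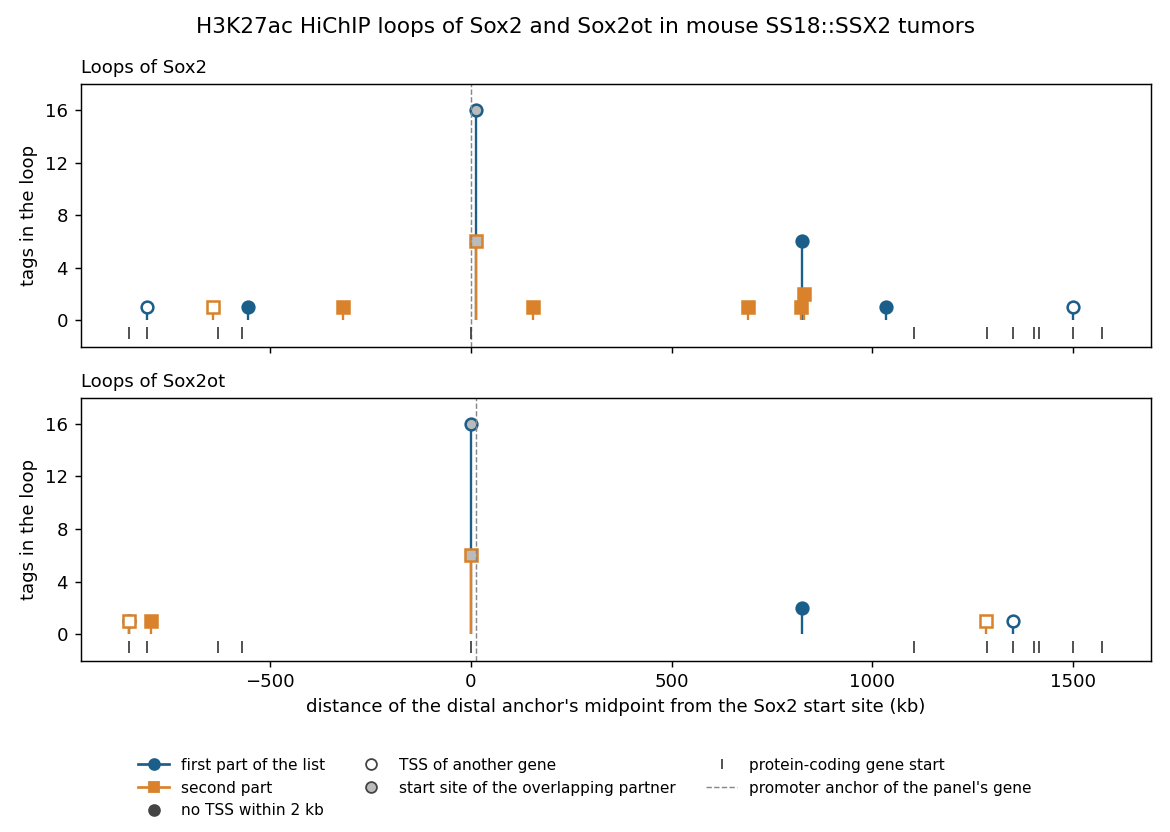
Tags per loop (vertical axis) against distance of the distal anchor from the Sox2 start site in kb, for Sox2 (top) and Sox2ot (bottom), with symbols as in the plot of the Sox1 locus. Outside the contact between the partners, the only loop above 2 tags was the 6-tag loop 824 kb downstream, in a stretch without coding gene starts.

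The remaining Sox2 loops held 1 tag each. They reached the start of Ccdc39, which is required for assembly of ciliary dynein arms, the processed pseudogene Gm9791 and D3Ertd254e at 1501 kb, as well as TSS-free segments 318 kb and 554 kb upstream and 156 kb, 691 kb and 1035 kb downstream. In all, 9 of the 13 loops reached downstream and 9 exceeded 500 kb, where the median span over all loops of the list was 500.3 kb.

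Sox2ot (ENSMUSG00000105265.4, chr3:34104270-34682619, plus strand) had 18 annotated start positions, and loops were found at 1. All 8 loops ran through the anchor around the start at position 34665243, which lies downstream of Sox2. The other 17 positions, which include the upstream start used by RefSeq, were 2.94 to 81.1 kb from the nearest anchor of the list. Of the 29 Sox2ot tags, 22 were the loops with the Sox2 promoter. The score of Sox2ot was 0 with RefSeq starts and 51 with a window of 5 kb. Beyond Sox2 and the distal segment, single tags led to Ttc14 in both parts, at spans of 863 and 864 kb, and to Mccc1 (a mitochondrial carboxylase subunit), Dcun1d1 (a neddylation cofactor) and a segment without a TSS 9.16 kb from Ccdc39.

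Sox21 (ENSMUSG00000061517.8, chr14:118233232-118237030, minus strand) had 3 loops of 1 tag each, at spans of 275, 316 and 737 kb. The first and second ended in introns of Abcc4, a drug and nucleotide exporter, and the third in an intron of Gpc6, a glypican. No other loop of the list used those 3 anchors. Sox14 (ENSMUSG00000053747.9, chr9:99874106-99876170, minus strand) had 1 loop of 1 tag, to an intergenic segment 222 kb away that was also looped to Mras, a Ras-related GTPase. No loop of Sox21 or Sox14 had an FDR under 0.01, compared with 7 of 21 for Sox1, 5 of 21 for Sox1ot, 3 of 13 for Sox2 and 2 of 8 for Sox2ot. Over the whole list, 3693 of 24244 loops had an FDR under 0.01. Every loop of Sox21 and Sox14 held a single tag, as did 78.0% of loops in the list.

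In each of these loops the promoter anchor covered the TSS itself, so none was close to the limit of the window. Just outside it, an anchor at chr3:34641442-34643370, upstream of the Sox2 anchor and 2.94 kb from a Sox2ot start, had 5 loops of 1 tag. In 3 of them the distal end was one that Sox2 or Sox2ot also contacted, namely the starts of Ttc14 and Ccdc39 and the segment chr3:35480288-35482908. An anchor between Sox1ot and Sox1, 3.69 kb from the former start, had 1 loop of 1 tag, and no such anchor lay near Sox14 or Sox21.

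**Figure D4:**
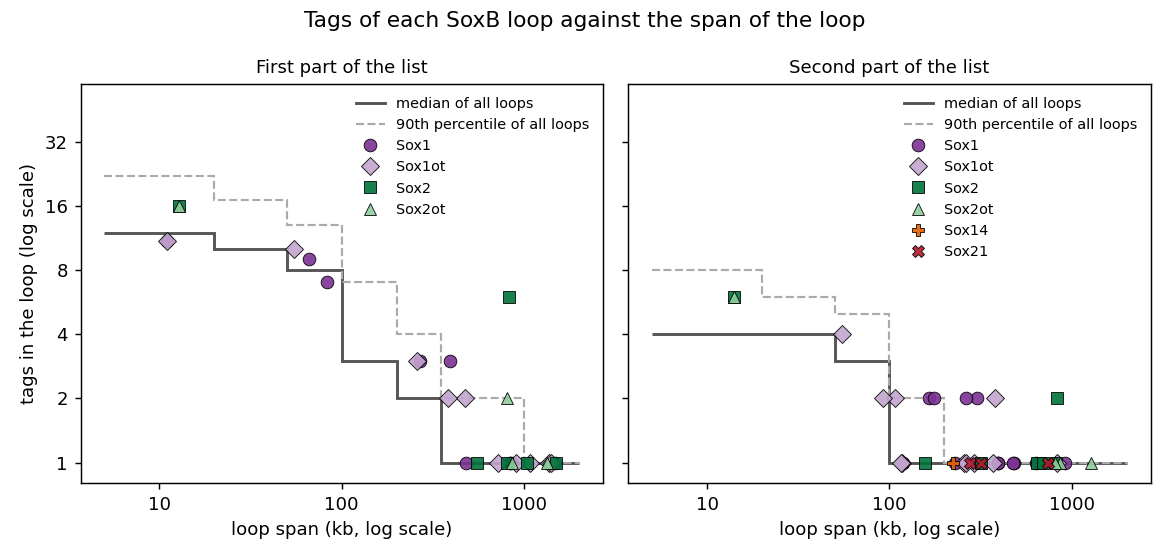
Tags per loop (vertical axis, log scale) against loop span in kb (log scale) for every SoxB loop, by part of the list, with the median and 90th percentile of all loops in span bins. Loops of Sox1 and Sox1ot under 100 kb followed the median, whereas the 824-kb loop of Sox2 with 6 tags stood above the 90th percentile. So did the first-part Sox1 loop of 3 tags at 395 kb. In the second part, loops of 2 tags beyond 200 kb, from Sox1, Sox1ot and Sox2, were also above it.

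Distal anchors near a TSS of a gene other than the member and its partner were a minority for Sox1, Sox1ot and Sox2. For Sox1 the share was 40.0% (8 of 20 distal anchors; Wilson interval 21.9 to 61.3%), for Sox1ot 47.6% (10 of 21; 28.3 to 67.6%), for Sox2 38.5% (5 of 13; 17.7 to 64.5%) and for Sox2ot 66.7% (4 of 6; 30.0 to 90.3%). The last 3 counts include anchors at the partner's own start, because Gm25239, Gm42693 or Gm27611 also begins there. In a second count those anchors stayed in the totals but were not counted as near another gene. The shares were then 42.9% for Sox1ot (9 of 21, 24.5 to 63.5%), 23.1% for Sox2 (3 of 13, 8.18 to 50.3%) and 50.0% for Sox2ot (3 of 6, 18.8 to 81.2%). Over the 15025 distal anchors of all looped protein-coding genes, where any other gene counted, it was 79.0%. This lay above the intervals of Sox1, Sox1ot and Sox2 on either count and within those of Sox2ot. With the Sox1ot start counted in, Sox1 had 9 of 20. With overlapping anchors merged and partner starts left out, 12 of 27 segments of Sox1 and Sox1ot had no TSS within 2 kb. For Sox2 and Sox2ot, 8 of 14 merged segments had none. No distal anchor of Sox14 or Sox21 was near a TSS, out of 1 and 3. Counting only loops to anchors free of a TSS of another gene, Sox1 had 12 and ranked 6 among 10050 looped coding genes, and Sox2 had 8 and ranked 27. By the tags of these loops, 33 for Sox1 and 14 for Sox2, the ranks were 17 and 99, where the median gene had 0.

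**Figure D5:**
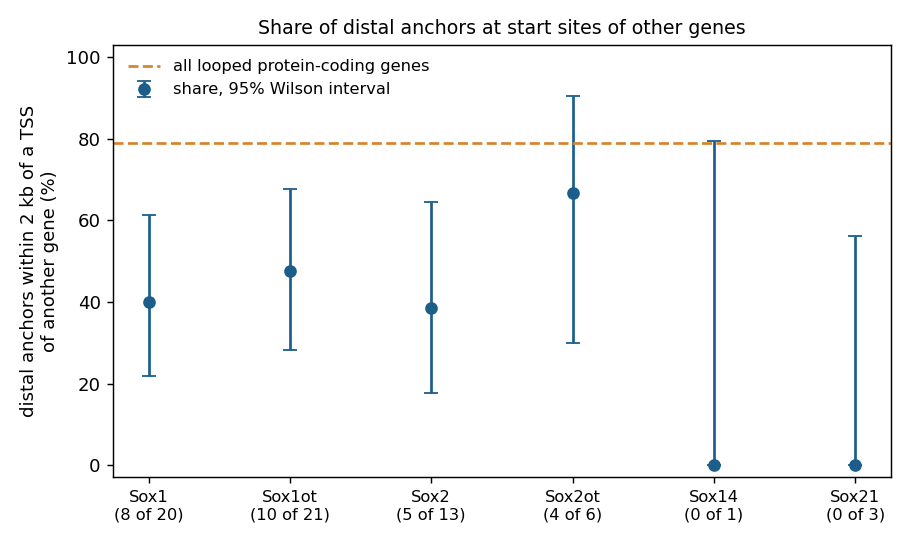
Percent of distal anchors within 2 kb of a TSS of another gene (vertical axis) for each member, with 95% Wilson intervals and with partner starts counted where a further transcript begins there, and the share over all looped protein-coding genes as a dashed line at 79.0%. Sox1, Sox1ot, Sox2 and Sox21 lay below the line with their whole interval.

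Each of the 33728 anchor edges in the list fell within 4 bases of a GATC, the site cut by MboI in the preparation, so anchor positions are resolved to restriction fragments. The first-part Sox1 promoter anchor was 68.3% GC with 104 CpG per kb, higher than 99.7% of anchors near a TSS in both measures. The wider second-part Sox1 anchor was 61.5% GC with 82.9 CpG per kb, above 95.1% and 98.3% of such anchors. The Sox2 anchor was 53.5% GC with 55.8 CpG per kb, the latter above 84.4% of such anchors. Sox2ot anchors (51.1 and 50.3% GC) were below the median of 52.5% for anchors near a TSS. The 29 TSS-free distal anchors of the members had a median GC content of 46.8% and 14.8 CpG per kb, close to the 46.9% and 13.3 per kb of all 3885 TSS-free anchors. They held a median of 4 MboI sites, the same as all TSS-free anchors.

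Among genes outside the set, likeness was measured as the Jaccard share, the anchors contacted by both genes over those contacted by either. Small annotated transcripts starting within the same promoter anchor had the same contacts by construction, namely Gm25239 for Sox1, Gm27611 for Sox2, Gm42693 for Sox2ot and Gm4675 for Sox21, each with a share of 1. Apart from these, Sox1 was most like Col4a1 and Col4a2, the paired collagen IV genes, which shared 4 of 24 anchors with it (0.167). Sox1ot was most like Ankrd10, Gm45592 and Mir7238, each with 6 of 26 anchors (0.231). For comparison, Sox1 and Sox1ot shared 7 of 34 anchors with identical edges (0.206). Sox2 was most like Ttc14 (2 of 14, 0.143) and Fxr1 (2 of 16, 0.125), and Sox2ot like Fxr1 and Gm43077 (2 of 9, 0.222). Sox14 shared its only contact with Mras, which had 2 more (0.333).

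Of the other Sox genes, 7 of 16 (43.8%) had a loop, beside the 45.8% of coding genes. The highest scores were 17 for Sox6 (interval 9.9 to 27.2), all from the second part, 10 for Sox13 and 9 for Sox12. Sox3, the third group B1 gene, is on chromosome X and had no loop in the list, where chromosome X as a whole had 297 loops. Among factors known to act with SOX2, 4 of 7 were looped, led by Pax6 with 11 tags, all in the second part, the remodeler Chd7 with 6 and the POU factor Pou3f3 with 3. Among genes known as SOX2 targets in stem cells, neural progenitors or lens, 4 of 12 were looped, with at most 2 tags (Nes, the intermediate filament nestin, and Lefty1, a Nodal antagonist). The interval of Sox6, the highest score in these lists, overlapped that of Sox2ot and lay below those of Sox1, Sox1ot and Sox2.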

How the data were processed

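H3K27ac HiChIP was performed on 2 hSS2 tumors. Per the study's methods, chromatin was cut with MboI, read pairs were mapped to mm10 with HiC-Pro (2.11.4) and loops were called with hichipper (0.7.0) at an FDR under 0.05. A legend instead names the caller Mango and 0.01, and says that loops of both tumors were called, then merged. The sources used here do not settle which caller gave the list, or say how counts were combined. The deposited list gives a tag count per loop, as merged by the authors, and an FDR, a p-value adjusted by the authors' caller; neither was altered. Anchors were matched to GENCODE vM21 starts within 2 kb with Python 3, and span was the distance between anchor midpoints. Of 200 planted genes in simulated loops, 200 were recovered with the planted score. With 1 merged list no test was run; 95% intervals are exact Poisson (tags), Wilson or exact binomial (shares). Loops entered by distance to a named gene alone, but the members and gene lists were themselves chosen with earlier results of these data known. The named genes were the members, genes at distal anchors of loops with at least 2 tags, the nearest coding gene within 2 kb for single-tag loops, up to 3 genes of highest Jaccard share per member, flanking coding genes, and the 3 highest of each list with Sox3. Alternatives covered the window, FDR, tags, parts, repeated pairs, anchor width, transcripts and span. The ChIP-seq samples were not used here. One further gene list is not reported here.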

Additional observations from a re-analysis of the deposited data

How the results depend on the processing

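Of 129 values recomputed under 13 alternatives, 94 stayed within the 95% interval (or 1.5 times the count) of the reported value and 35 did not. The number of members with a loop was 4 to 6 throughout. Thresholds removed tags by construction. With an FDR under 0.01 the loop scores of Sox1, Sox1ot, Sox2 and Sox2ot were 23, 19, 24 and 18, and under 0.001 they were 10, 5, 24 and 18. With at least 4 tags per loop Sox1 was 27, Sox1ot 25 and Sox2 28. Sox2 thus exceeded Sox1 under all 3 of these limits. Sox14 and Sox21 were 0 at either FDR, with at least 2 or 4 tags, and in the first part alone. The first part gave 37, 33 and 26 for Sox1, Sox1ot and Sox2, and the second gave 16, 17, 13 and, for Sox2ot, 9. Sox2ot rose to 51 with a 5 kb window and was 0 with RefSeq starts, because anchors 2.94 and 3.49 kb from further annotated starts, the Sox2 anchor among them, then count and because the RefSeq start lies 81.1 kb from the nearest anchor. The share of Sox1 distal anchors near another gene was 14.3% (1 of 7) and 0% (0 of 4) at the 2 FDR limits, 11.1% (1 of 9) with at least 2 tags and 0% (0 of 3) with at least 4. With at least 4 tags the share was 66.7% (2 of 3) for Sox2 and 100% (1 of 1) for Sox2ot, in both cases anchors of the partner's start where a further transcript begins. A window of 1 kb, anchors resized to 4 kb, basic transcripts, repeated pairs counted once and spans up to 1 Mb moved no value out of its interval. Most SoxB loops rest on 1 tag, and their presence or absence in a part is limited by depth. No paired analysis was possible because the result comes from no test and the list has no column per tumor.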
